A study of Mus musculus with 8 samples.

Results

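The collagen genes are the 42 autosomal protein-coding genes of the mouse annotation whose symbol is Col, a number, the letter a and a number, such as Col1a1, out of 20807 autosomal protein-coding genes. The rule used the symbols only and no measured value. The 2 such genes on chromosome X, Col4a5 and Col4a6, were left out by the rule. The measurement was ChIP-seq of WFS1, a transmembrane protein of the endoplasmic reticulum that the study examined at the nuclear membrane, in wildtype C2C12 myoblasts kept proliferating, a mouse cell line that fuses into myotubes when growth factors are withdrawn. Chromatin was crosslinked with DSG and formaldehyde and precipitated with an antibody to WFS1, and peaks were called after 30 sonication cycles and, from a part of the same immunoprecipitate, after 6 further cycles (36 in all). Of the 8 libraries of the series these 2 were used, and the inputs and the WFS1 knockout cells that express FLAG Tag WFS1 were not used here.

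Each condition had 1 library and both lists came from 1 immunoprecipitation, so the lists are not replicates and no test between samples was possible. All values below are counts of called peaks and describe these libraries. The lists held 18283 peaks after 30 cycles and 12674 after 36 cycles, and overlapping peaks were joined into 22292 regions, here called joined peaks. The lists give positions only, with no height or read count. The sequencing depth is unknown, a gene without a peak may still have signal below the threshold, and the cell type could not be checked against marker genes. Intervals beside shares were calculated by the Wilson method at 95% and reflect counting error alone.

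Collagens are the main structural proteins of the extracellular matrix. Each molecule is a triple helix of chains encoded by these genes, and the chains are hydroxylated, folded and assembled in the endoplasmic reticulum before export. In muscle, fibroblasts and myogenic cells supply the fibrillar collagens of the connective tissue, the type IV network of the basement membrane around each myofibre and the type VI filaments outside it. Mutations in type VI chains cause muscular dystrophy.

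Sequences of joined peaks are shown to let the bases under the called regions be read directly. They were read from the plus strand of GRCm38. Capitals mark TGACTCA, the site bound by AP-1 factors (or TGAGTCA, the same site on the other strand), and CAGCTG, an E-box of the type bound by MyoD1 and other myogenic factors, which reads the same on both strands. The first 3 windows lay within 1 kb of a collagen start site, and none held either motif. Col3a1 is shown as the start site peak found in both lists, Col1a1 and Col4a1 as start site peaks of a single list.

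Col3a1 chr1:45311893-45312092, 0.23 kb from the start site: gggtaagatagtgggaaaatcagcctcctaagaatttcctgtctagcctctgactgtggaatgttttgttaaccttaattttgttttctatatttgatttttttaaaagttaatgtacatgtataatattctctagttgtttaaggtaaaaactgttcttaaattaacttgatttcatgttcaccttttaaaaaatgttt
Col1a1 chr11:94936784-94936983, 0.504 kb from the start site: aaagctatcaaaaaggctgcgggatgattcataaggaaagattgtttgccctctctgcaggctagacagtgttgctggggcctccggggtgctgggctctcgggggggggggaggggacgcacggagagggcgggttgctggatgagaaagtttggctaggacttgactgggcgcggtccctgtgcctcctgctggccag
Col4a1 chr8:11311920-11312114, 0.712 kb from the start site: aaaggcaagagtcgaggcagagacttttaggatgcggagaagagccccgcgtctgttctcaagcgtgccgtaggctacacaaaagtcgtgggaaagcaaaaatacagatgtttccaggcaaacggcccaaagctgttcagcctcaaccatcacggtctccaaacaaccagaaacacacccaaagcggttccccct

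The next 7 windows came from peaks that were in both lists, lay in a collagen gene and held at least 1 of the motifs, taken from those nearest to the start site, and were centred on the motif nearest to the middle of the peak. They were therefore chosen for the motif. A further such peak of Col5a1, 5.79 kb from its start site, and one of Col19a1, at 37.0 kb, are not shown. They lie in introns of genes of several classes, except the Col1a2 window, whose peak overlapped an exon.

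Col5a3 chr9:20812885-20813084, 1.63 kb from the start site: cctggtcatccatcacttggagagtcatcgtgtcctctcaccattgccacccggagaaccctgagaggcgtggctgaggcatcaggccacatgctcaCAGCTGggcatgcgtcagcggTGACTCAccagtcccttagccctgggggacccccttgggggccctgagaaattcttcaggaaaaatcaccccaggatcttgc
Col4a2 chr8:11315584-11315783, 1.93 kb from the start site: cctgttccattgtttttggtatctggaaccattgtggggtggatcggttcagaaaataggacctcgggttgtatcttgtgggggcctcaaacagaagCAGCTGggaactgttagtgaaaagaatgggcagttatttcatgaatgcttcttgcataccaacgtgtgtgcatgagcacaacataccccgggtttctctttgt
Col5a1 chr2:27888960-27889159, 2.27 kb from the start site: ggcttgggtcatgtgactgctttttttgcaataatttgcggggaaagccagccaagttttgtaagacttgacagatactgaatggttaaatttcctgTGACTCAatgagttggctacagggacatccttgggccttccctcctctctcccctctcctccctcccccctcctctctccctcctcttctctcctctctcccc
Col6a3 chr1:90838734-90838933, 4.98 kb from the start site: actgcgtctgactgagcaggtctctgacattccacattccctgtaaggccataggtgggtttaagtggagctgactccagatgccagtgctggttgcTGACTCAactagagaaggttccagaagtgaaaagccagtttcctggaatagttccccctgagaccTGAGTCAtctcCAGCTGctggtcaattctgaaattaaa
Col24a1 chr3:145307277-145307476, 14.7 kb from the start site: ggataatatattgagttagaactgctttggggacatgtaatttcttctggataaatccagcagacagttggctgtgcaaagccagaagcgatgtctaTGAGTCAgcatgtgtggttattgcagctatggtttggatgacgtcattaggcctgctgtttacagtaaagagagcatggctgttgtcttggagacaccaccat
Col1a2 chr6:4531100-4531299, 26.0 kb from the start site: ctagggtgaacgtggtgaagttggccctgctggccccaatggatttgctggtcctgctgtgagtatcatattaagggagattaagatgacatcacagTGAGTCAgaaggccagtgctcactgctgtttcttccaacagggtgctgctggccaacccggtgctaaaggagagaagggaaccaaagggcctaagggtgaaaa
Col19a1 chr1:24553553-24553752, 33.5 kb from the start site: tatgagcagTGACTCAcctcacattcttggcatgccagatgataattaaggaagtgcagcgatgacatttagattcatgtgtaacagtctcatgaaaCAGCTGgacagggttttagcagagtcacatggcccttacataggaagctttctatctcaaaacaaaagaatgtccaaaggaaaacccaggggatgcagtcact

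The Col5a3 and Col19a1 windows held 1 AP-1 site and 1 E-box each, and the Col6a3 window held 2 AP-1 sites and 1 E-box. The Col4a2 window, from a peak of 1224 bp, held an E-box alone. In the Col4a2 and Col6a3 peaks the motifs lay outside the central 200 bp. Shares based on the central 200 bp, given further below, count these peaks as without a motif. The Col5a1, Col24a1 and Col1a2 windows held 1 AP-1 site and no E-box. A match describes letters in the reference genome and is not a measured binding site.

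Collagen genes were long, with a median of 111 kb (7.11 to 468 kb) against 17.6 kb for all autosomal protein-coding genes, and 21 of 42 fell in the longest of 10 equal classes of gene length. Counts for these genes were therefore set beside a number expected from length alone, namely the share of the other genes of the same length class that had a peak, summed over the 42. Among all genes this share rose from 7.30% in the shortest class to 62.3% in the longest, where genes measured 110 kb or more. Intervals on the ratios below take that expected number as fixed.

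At the start site, collagen genes did not stand out. A joined peak lay within 1 kb of the start site in 6 of 42 collagen genes (14.3%, 6.72 to 27.8%), where 13.8% of all genes had one. The number expected from length was 6.81, a ratio of 0.881 (0.414 to 1.72). Col4a1 and Col4a2 were counted through the same 2 peaks, and without them the ratio was 0.618 (0.245 to 1.42). The 30-cycle list held a start site peak for 3 of the 6 genes, the 36-cycle list for 4, and Col3a1 alone had one in both lists. Counting every annotated transcript start added Col1a2 and Col7a1, making 8 genes, beside 17.1% of all genes.

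In the gene itself, from the start site to the last annotated base, 25 of 42 collagen genes held at least 1 joined peak (59.5%, 44.5 to 73.0%). The share among all genes was 25.6%, but genes of the same lengths gave 19.7 genes (47.0%), a ratio of 1.27 whose interval of 0.946 to 1.55 included 1. With genes of every biotype as the reference, and length classes formed anew over all of them, the ratio was 1.41 (1.06 to 1.73), an interval above 1. With protein-coding genes in 5 broader length classes it was 1.34 (1.00 to 1.64). Taken alone, the 30-cycle list gave 24 genes (57.1%), where 22.7% of all genes had a peak and length gave 18.2. The 36-cycle list gave 19 genes (45.2%), beside 15.6% of all genes and 13.9 from length. Peaks found in both lists lay in 16 collagen genes (38.1%, 25 to 53.2%), where 11.4% of all genes held one and length gave 11.1, a ratio of 1.45 (0.950 to 2.02).

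Within 50 kb of the start site, on either side, 27 of 42 collagen genes had a joined peak (64.3%, 49.2 to 77.0%), beside 56.1% of all genes and 23.4 genes expected from length. The ratio was 1.15 (0.882 to 1.38). The 30-cycle list gave the same number, 27, and the 36-cycle list 21. For peaks found in both lists the count was 19 (45.2%) where length gave 11.9, and the ratio of 1.59 (1.10 to 2.11) was the only one of the 12 combinations of readout and peak set, with protein-coding reference genes in 10 length classes, whose interval did not include 1. Without Col4a1 and Col4a2, which share their start region and hence their nearby peaks, it was 17 of 40 with a ratio of 1.49 (1.000 to 2.03). No ratio was tested.

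**Figure D1:**
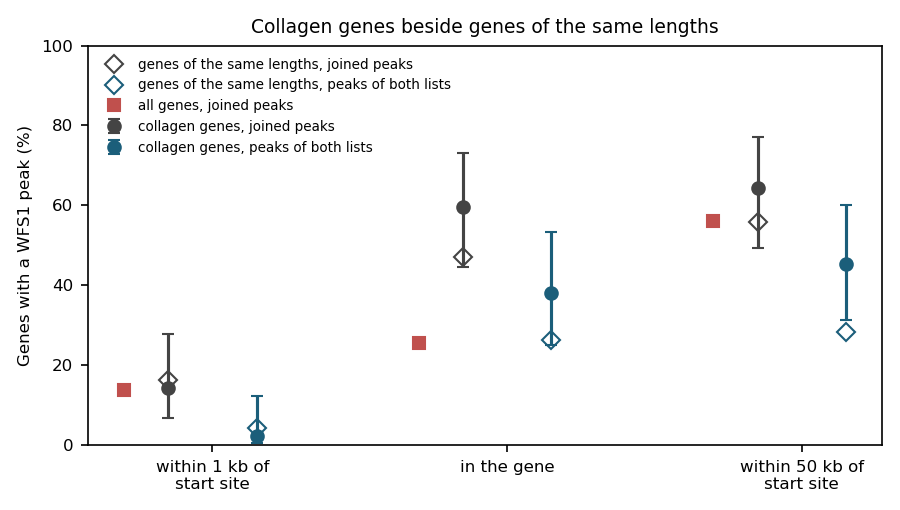
Share of genes with a WFS1 peak (%, vertical axis) for the 3 readouts. Filled circles are the 42 collagen genes with 95% Wilson intervals, open diamonds the share expected from gene length, and squares all autosomal protein-coding genes. In the gene, 59.5% of collagen genes had a joined peak beside 47.0% from length and 25.6% of all genes.

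The number of peaks gave a different picture in the gene and around the start site. The collagen genes held 66 joined peaks, where genes of the same lengths gave 64.4, and 31 peaks of both lists where length gave 22.6. Without Col4a1 and Col4a2, the genes with the most peaks, these became 48 against 59.4 and 22 against 20.8. Within 50 kb of the start sites there were 89 pairs of gene and peak, made by 81 different peaks, where length gave 58.6, and for peaks of both lists 36 where length gave 19.4. Without Col4a1 and Col4a2 these were 73 against 56.0 and 30 against 18.5, ratios of 1.30 and 1.62. The count within 50 kb thus exceeded the number from length with and without that pair, whereas the count of joined peaks in the gene fell below it once the pair was left out. Neither difference was tested.

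The peaks were spread unevenly over the family. No peak lay in 17 genes, 1 in 10, 2 in 4, 3 in 6, 4 in 3, and 5 or more in 2. At least 3 peaks lay in 11 collagen genes (26.2%), beside 6.26% of all genes, a share again not adjusted for length. Both a peak in the gene and one within 50 kb were found in 20 genes, a peak within 50 kb only in 7, a peak far inside the gene only in 5, and neither in 10. Taken singly, 25.6% of all genes held a peak in the gene and 56.1% had one within 50 kb. Shares of all genes for the combinations are not given, so these counts cannot be read as high or low.

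**Figure D2:**
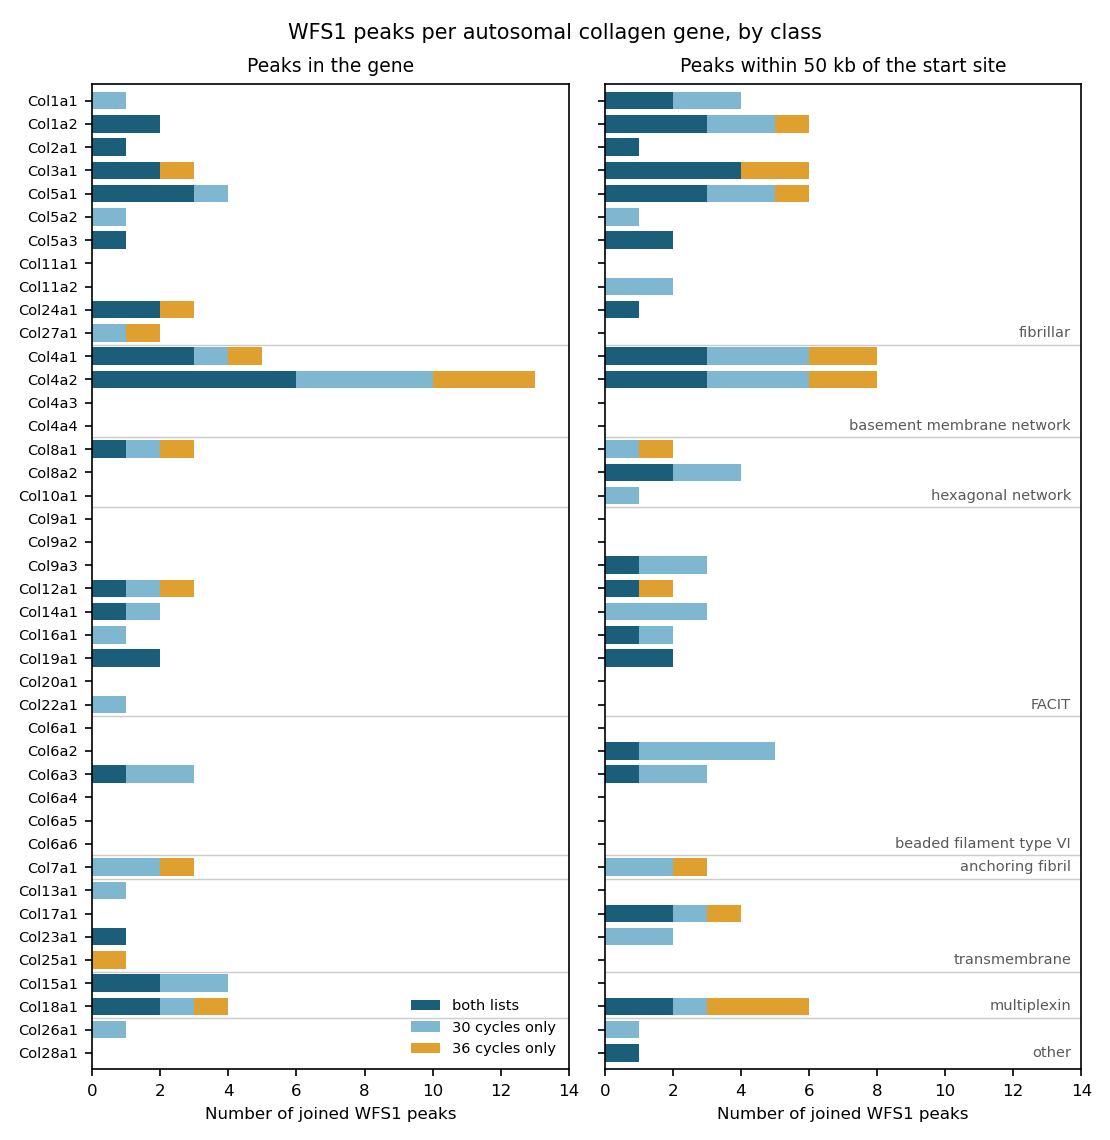
Number of joined WFS1 peaks in each collagen gene (left) and within 50 kb of its start site (right), with bars divided into peaks of both lists, of the 30-cycle list only and of the 36-cycle list only, and lines between classes. Col4a2 held 13 peaks, while 17 genes held none.

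**Figure D3:**
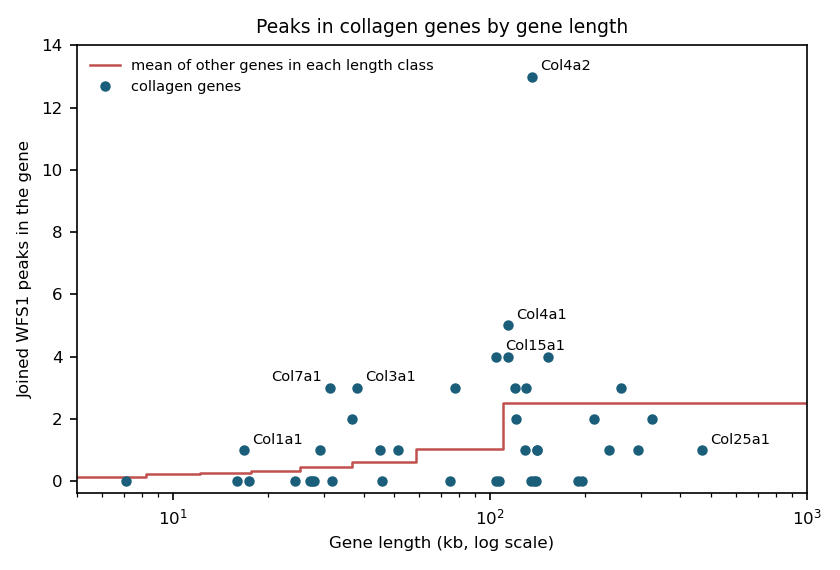
Joined peaks in each collagen gene (vertical axis) against gene length (kb, log scale), with the mean of other genes of each length class as a stepped line. Every gene but Col4a2, with 13 peaks, lies within 3 peaks of the line.

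The fibrillar collagens, whose chains form the banded fibrils of skin, bone, tendon and the muscle connective tissue, had a peak in the gene in 9 of 11 genes, where length gave 4.86. They had a peak within 50 kb in 9 of 11, beside 56.1% of all genes. A start site peak was found for 3 of the 11, beside 13.8% of all genes. These 2 counts were not adjusted for length within the class. The fibrillar genes held 18 joined peaks, 11 in both lists, 4 in the 30-cycle list only and 3 in the 36-cycle list only. This was 1.72 per 100 kb, beside 1.16 for other genes and 0.897 for other genes of the longest length class. Densities here and below were not adjusted for length.

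Col1a1 and Col1a2, which encode the chains of type I collagen, differed in where their peaks lay. Col1a1 (chr11:94936224-94953042, plus strand) held 1 peak of the 30-cycle list and none of the 36-cycle list, in its first intron 0.504 kb from the start site. Within 50 kb it had 4 peaks, all in the 30-cycle list and 2 of them also in the 36-cycle list, and those 2 lay 19.2 and 22.0 kb upstream. Col1a2 (chr6:4504814-4541544, plus strand) held 2 peaks in both lists, one of 860 bp in the first intron 2.18 kb from the start site and one of 839 bp 26.0 kb from it, which overlapped an exon and held the AP-1 site shown above. Within 50 kb it had 6 peaks, 5 of the 30-cycle list and 4 of the 36-cycle list. The upstream ones included 3 separate small peaks between 14 and 15.1 kb upstream, each in 1 list only, and a peak of 1832 bp in both lists 46.8 kb upstream.

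Col3a1, the type III chain, had 4 of its 6 nearby peaks within 2.41 kb of its start site. In the gene (chr1:45311538-45349706, plus strand) it held 3 joined peaks, 2 of the 30-cycle list and 3 of the 36-cycle list. The first, at chr1:45311768-45312217, began 230 bp after the start site and was the sole start site peak of the family found in both lists. The others lay in the first intron, 1.21 kb (36 cycles only) and 2.41 kb (both lists) from the start site. Upstream there were peaks 2.04 kb (both lists), 7.01 kb (36 cycles only) and 11.4 kb (both lists) from the start site, and those at 2.04 and 7.01 kb held both motifs in their central 200 bp. All 6 peaks within 50 kb were in the 36-cycle list and 4 in the 30-cycle list, the reverse of Col1a1. Genes with 6 or more peaks within 50 kb numbered 6 of 42 collagen genes (14.3%) and 1084 of all genes (5.21%).

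Type V collagen, which initiates and limits the width of type I fibrils, is encoded by Col5a1, Col5a2 and Col5a3. Col5a1 (chr2:27886425-28039514, plus strand) held 4 joined peaks, made from 4 peaks of each list, with 3 found in both, 1 of which held 2 peaks of the 36-cycle list. It had 6 within 50 kb. Its peaks at 2.27 and 5.79 kb in the first intron were both in both lists. Col5a2 (chr1:45374321-45503282, minus strand), the neighbour of Col3a1, held a single peak, of the 30-cycle list, 186 bp after the start site at chr1:45502737-45503096. The 3 upstream peaks of Col3a1 had no counterpart at Col5a2, which had no other peak within 50 kb. Col5a3 held 1 peak, in both lists and 987 bp wide, in the first intron 1.63 kb from the start site.

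The other fibrillar genes are expressed mainly in cartilage or less widely. Col24a1 held 3 joined peaks over 260 kb, 2 of the 30-cycle list and 3 of the 36-cycle list. Col27a1 held 2, 1 in each list, and Col2a1, the main cartilage chain, held 1 in both lists, 12.3 kb from its start site. Col11a2 had 2 peaks of the 30-cycle list within 50 kb, 1 of them at the start site of Ring1, and none in the gene. Col11a1, a cartilage chain gene of 190 kb, had none, and its nearest peak was 1541 kb from its start site, the most distant of the family, while 59.0% of the 200 genes nearest to it in length held a peak.

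Type IV collagen, the network of basement membranes, differed in the number of peaks between its pairs of genes. Its 4 autosomal chains are arranged as head-to-head pairs, Col4a1 with Col4a2 on chromosome 8, their start sites 21 bp apart, and Col4a3 with Col4a4 on chromosome 1, 72 bp apart. The first pair encodes the chains found in nearly all basement membranes, and the second pair those of kidney glomerulus, lung and a few other tissues. The genes were of like length, 114 and 136 kb in the first pair and 135 and 138 kb in the second. The first pair held 18 joined peaks in 251 kb, 9 of them in both lists, 5 in the 30-cycle list only and 4 in the 36-cycle list only. The second pair held none in 274 kb, and 1 peak, of the 30-cycle list only, lay 2.86 kb beyond the end of Col4a3. Of the 200 genes nearest in length, 62.0% held a peak for Col4a3 and 63.0% for Col4a4. A gene of this length without a peak was therefore not rare.

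Col4a2 (chr8:11312805-11449287, plus strand) held 13 joined peaks, 10 of the 30-cycle list and 9 of the 36-cycle list, with 6 in both. This was 9.52 per 100 kb, and of the 200 genes nearest to it in length, which held 1.91 on average, 3 had as many. Over all lengths 45 genes (0.216%) held 13 or more. Its peaks fell into groups, with 5 between the start site and 14.7 kb and the other 8 between 59.4 and 99.5 kb, and none in between. The widest, 1438 bp and in both lists, lay 68.9 kb from the start site, and the next, 1224 bp, 1.93 kb from it. Col4a1 (chr8:11198423-11312826, minus strand) held 5 joined peaks, 4 in each list and 3 in both, where the 200 genes nearest in length held 1.52 on average and 16 had as many. Of these, 3 in both lists lay between 46.9 and 53.5 kb from the start site, and 1 lay at 712 bp. The start region of the pair was flanked by 2 peaks, at chr8:11311920-11312114 and chr8:11312984-11313178, both found after 36 cycles only and 195 bp wide, the smallest width of any peak.

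**Figure D4:**
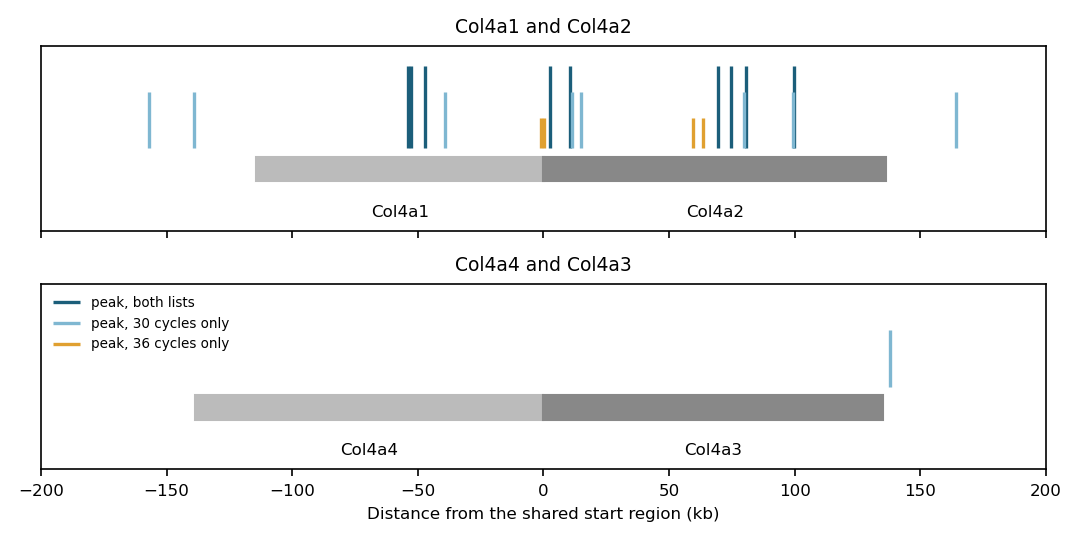
Joined WFS1 peaks (vertical lines, taller for both lists, shorter for 1 list) along the head-to-head genes Col4a1 and Col4a2 (upper) and Col4a4 and Col4a3 (lower) with 50 kb on either side, against distance from the shared start region (kb). The upper pair holds 18 peaks in its genes and 3 outside, the lower pair none in its genes and 1 outside.

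Of the network-forming collagens of types VIII and X, Col8a1, a chain of vessel walls and corneal membranes, held 3 joined peaks, 2 in each list and 1 in both, over 130 kb. The nearest, in the first intron, was 7.07 kb from the start site. Col8a2 had none in the gene but 4 within 50 kb, all of them upstream by 24.9 kb or more, of which 2 lay at the start sites of its neighbours Map7d1 and Trappc3. Col10a1, the chain of hypertrophic cartilage, had 1 peak of the 30-cycle list 7.39 kb from its start site, which lay in the gene Nt5dc1. The class held peaks in 1 of 3 genes, where length gave 1.01.

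The fibril-associated collagens with interrupted triple helices, or FACIT collagens, which coat the fibrils, held 9 peaks in 5 of 9 genes, where length gave 4.01. Their density was 0.821 per 100 kb. Col12a1, a chain of muscle and tendon matrix, held 3 joined peaks, 2 in each list. One of them, at chr9:79718577-79718833, overlapped the start site itself, the sole case in the family, and was found after 36 cycles only. Its other peaks lay at 37.6 kb (both lists), with both motifs in its central 200 bp, and at 108 kb (30 cycles only), with 2 AP-1 sites. Col14a1 held 2 peaks, both in the 30-cycle list and 1 in the 36-cycle list, and Col19a1, a chain found in developing muscle, held 2 in both lists at 33.5 and 37.0 kb. Col16a1 and Col22a1, a chain of the myotendinous junction, held 1 each, of the 30-cycle list. Col9a1, Col9a2 and Col20a1 had no peak in the gene or within 50 kb. Col9a3 had 3 within 50 kb only, all of them at the start sites of its neighbours Mrgbp and Ogfr.

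The type VI chains, whose beaded filaments lie between the basement membrane and the surrounding matrix of muscle fibres, held a peak in 1 of 6 genes, where length gave 2.53. That gene was Col6a3, with 3 joined peaks in the 30-cycle list and 1 in the 36-cycle list, at 4.98 kb (both lists), 8.61 and 40.4 kb (30 cycles only). The last 2 held AP-1 sites in their central 200 bp. Col6a1 and Col6a2, which encode the other chains of the main type VI molecule, held none, but the stretch between them had 5 peaks within 50 kb of the start site of Col6a2, from 7.78 to 45.3 kb upstream. All 5 were in the 30-cycle list and 1 was in the 36-cycle list as well, the farthest. No other protein-coding gene lay at these peaks, which also fell between the end of Col6a1 and Col6a2, since both genes are read in the same direction. From the start site of Col6a1 the nearest peak was 56.7 kb away. The cluster of Col6a4, Col6a5 and Col6a6 had no peak over 409 kb, and none in the 50 kb on either side. Of the 200 genes nearest in length to each, 55.0%, 61.0% and 64.5% held a peak.

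Col7a1, the anchoring fibril chain of skin, held 3 joined peaks in 31.3 kb, 2 of the 30-cycle list and 1 of the 36-cycle list with none in both. This was 9.59 per 100 kb, the highest density of the family, and 7 of the 200 genes nearest in length had as many. All 3 lay in the last part of the gene, 24.4 to 29.2 kb from the start site, and overlapped exons.

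The multiplexins, basement membrane collagens whose ends are cleaved to release fragments such as endostatin, held 8 peaks in 2 of 2 genes, 3.65 per 100 kb. Length gave 1.09 genes with a peak. Col15a1 held 4 joined peaks, 4 of the 30-cycle list and 2 of the 36-cycle list, all between 85.6 and 102 kb from the start site in a gene of 105 kb. Col18a1, which encodes the precursor of endostatin, held 4 joined peaks, 3 in each list and 2 in both, and had 6 within 50 kb. Of those 6, 4 lay upstream, in a group between 35.4 and 45.1 kb.

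Of the 4 transmembrane collagens, Col13a1, a chain of the neuromuscular junction, Col23a1 and Col25a1 held 1 peak each in genes of 141 to 468 kb, which was 0.316 per 100 kb for the class. Length gave 2.20 genes with a peak. The peak of Col25a1 was the sole one of the family's genes seen after 36 cycles with none of the 30-cycle list in the gene. Col17a1, the hemidesmosome chain, held none, but had 4 peaks within 50 kb, of which those 5.59 and 7.50 kb upstream were in both lists. Those 38.4 and 38.9 kb upstream lay at the start site of another gene, Sfr1. Col26a1 held 1 peak of the 30-cycle list, and Col28a1 had 1 in both lists within 50 kb only.

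The 66 peaks in collagen genes were joined from both lists in 31 cases (47.0%, 35.4 to 58.8%), found after 30 cycles only in 23 (34.8%) and after 36 cycles only in 12 (18.2%). The corresponding shares of the 11261 peaks in other genes were 33.4%, 46.9% and 19.7%. Without a replicate of either condition this difference was not tested. Peaks in collagen genes had a median width of 437 bp, beside 376 bp in other genes, and a median GC content of 50.2%, beside 48.5%.

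By position, 10 of the 66 peaks overlapped an exon (15.2%, 8.44 to 25.7%), beside 27.7% of peaks in other genes. This comparison was not adjusted for gene length. Exons made up 6.88% of the bases of the collagen genes, but a peak that shared 1 bp with an exon counted as overlapping. The share of peaks and the share of bases are therefore not comparable. The peak centre lay in the first intron of the annotated transcript with the most exon bases in 15 of the 66 (22.7%), where that intron made up 12.7% of the bases. It lay in a later intron in 42, and in no intron of that transcript in 9. Along the gene, 24 of 66 centres (36.4%) lay in the first of 5 equal parts. Among genes of the 2 longest length classes that part held 18 of 54 peaks of collagen genes (33.3%, 22.2 to 46.6%) and 27.8% of those of other genes, so the interval included the share of other genes. Of the 81 peaks within 50 kb of a start site, 37 lay in a collagen gene, 32 in no protein-coding gene, 10 at the start site of another gene and 2 elsewhere in another gene.

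The AP-1 site occurred in the central 200 bp of 17 of the 66 peaks in collagen genes (25.8%, 16.7 to 37.4%). It occurred in 16.6% of peaks in other genes and 3.41% of the 24192 consecutive windows of 200 bp that cover the collagen genes. The E-box occurred in 14 of the 66 (21.2%, 13.1 to 32.5%), beside 18.1% of peaks in other genes and 8.97% of the windows. Both motifs were present in 3 peaks (4.55%) and neither in 38. Both shares thus lay above those of the windows. The motifs were chosen with earlier results of these data known, and the paper reported the E-box as enriched in its WFS1 peaks. An excess over the windows was therefore foreseeable and is not particular to collagen genes. For the AP-1 site the share in other peaks, 16.6%, lay just below the interval, and for the E-box it lay inside. Neither difference was tested. The 36-cycle list alone gave the AP-1 site in 13.6% of its peaks in collagen genes, and the 30-cycle list alone in 29.6%. Shares of other genes in each list alone are not given. Among the 81 peaks within 50 kb, 9 held both motifs (11.1%, 5.96 to 19.8%), beside 3.69% of all autosomal peaks.

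**Figure D5:**
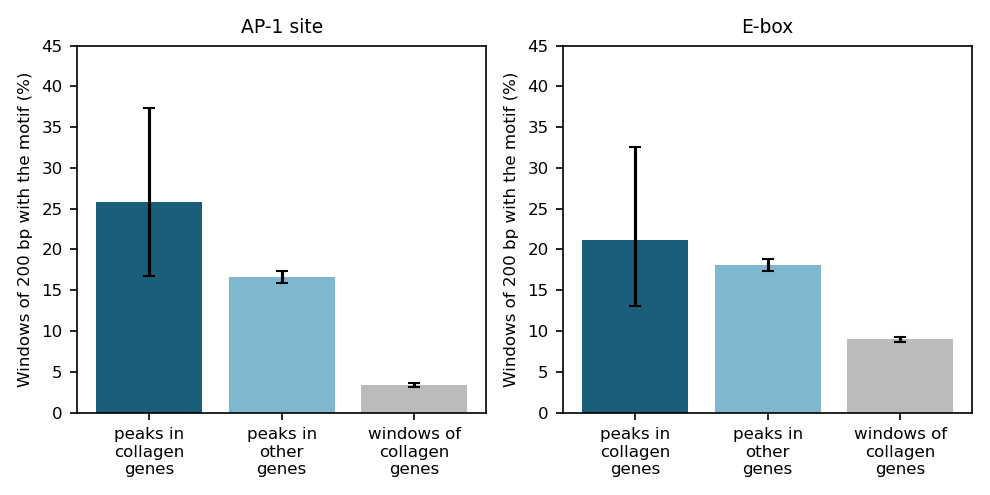
Share of windows of 200 bp (%, vertical axis) with the AP-1 site (left) and the E-box (right), for the centres of peaks in collagen genes, the centres of peaks in other genes and all consecutive windows of the collagen genes, with 95% Wilson intervals. For the AP-1 site the shares were 25.8%, 16.6% and 3.41%.

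RefSeq promoter sequences for GRCm38, spanning each annotated start, were at hand for 33 of the 42 genes, with 36 promoters in all. The AP-1 site was in 1 (2.78%, 0.492 to 14.2%), beside 5.26% of 31396 autosomal promoters, and the E-box in 7 (19.4%, 9.75 to 35.0%), beside 16.3%. Both intervals included the share of all promoters, and the promoter sequences were longer than the windows of 200 bp above.

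The genes that process collagen or bind it were counted in the same way, from lists written for each step. Of 57 genes, 26 held a joined peak (45.6%, 33.4 to 58.4%), where genes of the same lengths gave 18.7, and 47 had one within 50 kb, where length gave 32.8. A start site peak was found for 11, where length gave 8.74. Over all genes the shares were 25.6% in the gene, 56.1% within 50 kb and 13.8% at the start site. Neighbouring genes on the lists can share peaks. None of these differences was tested, here or for the single lists below.

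Of the enzymes that modify the chains in the endoplasmic reticulum, 5 of 15 held a peak (length gave 4.26). The prolyl 3-hydroxylase P3h2 held 4 joined peaks, 4 of the 30-cycle list and 3 of the 36-cycle list. Of the lysyl hydroxylases, Plod3 held 1, of the 30-cycle list, and Plod1 and Plod2 held none. Of the genes for folding and export, 5 of 10 held a peak (length gave 3.01). Among them the chaperone gene Serpinh1 held none in the gene but 7 within 50 kb, and Creb3l1, a transcription factor of the secretory pathway, held 2 in both lists. Fkbp10 and its neighbour P3h4, whose start sites lie less than 1 kb apart, had 11 peaks each within 50 kb.

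Of the enzymes that cleave the propeptides, 6 of 10 held a peak (length gave 4.55), and Pcolce, an enhancer of that cleavage, held 3 in 8.68 kb, with 3 of the 30-cycle list and 2 of the 36-cycle list. Of the lysyl oxidases, which crosslink the secreted chains, 3 of 5 held one (length gave 1.41). Loxl1 held 7 joined peaks, 6 of the 30-cycle list and 2 of the 36-cycle list, in 25.4 kb, and Lox held 1 and had 7 within 50 kb. Over all genes, 2.65% held 5 or more peaks in the gene and 5.21% had 6 or more within 50 kb. These shares were not adjusted for length. The genes named from the processing and receptor lists were chosen after their values were seen.

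Small proteoglycans that bind fibrils held a peak in 3 of the 7 autosomal genes of their list of 8 (length gave 1.25), and all 7 had one within 50 kb. The other, Bgn on chromosome X, was not counted. Of the collagen receptors 4 of 10 held one (length gave 4.21), and the kinase Ddr2 held 8 joined peaks, 6 in each list and 4 in both, whereas the integrin genes Itga2, Itga10, Itga11 and Itgb1 held none and Itga1 held 1.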

How the data were processed

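WFS1 ChIP-seq peak lists of wildtype proliferating C2C12 cells after 30 and 36 sonication cycles were used. Per the labels and the paper, the authors mapped reads to GRCm38 (mm10), processed them with SAMtools, and called peaks with MACS2 for each library separately. The control used in peak calling is not given in the sources used here. The deposited lists hold peak positions (chromosome, start and end) without score, and the depth is unknown. Lists were joined with bedtools 2.31.1 merge, and overlap meant at least 1 bp. Genes came from GENCODE mouse release 21, an earlier release than the study's annotation, with the start site at the gene's 5′ end. Length was adjusted for with 10 classes of all other autosomal protein-coding genes. For single genes, the 200 genes nearest in length are given. Motifs were searched on both strands. All collagen genes were accounted for by class. Given in detail were those with a start site peak, the 10 with the most peaks in the gene and the 5 with the highest density among those with at least 2 peaks. Names outside that rule were chosen after their values were seen. The genes, classes, lists and motifs were chosen with earlier results of these data known. Start site windows that overlapped a UTR (Col12a1, Col5a2 and 1 peak of Col4a2) are not shown as sequence. Counts were tested on simulated data. The software was pysam 0.24.0, pandas 2.3.3, numpy 2.4.6, scipy 1.17.1 and matplotlib 3.10.9 under python 3.11.15.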

Additional observations from a re-analysis of the deposited data

How the results depend on the processing

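Each of 12 results was recomputed under alternatives, 65 values in all. Of these 51 lay inside the counting interval of the main value and 14 outside it. The start site ratio to length, 0.881 with an interval that included 1, was 1.22 (0.484 to 2.84) with the 36-cycle list alone, an interval that also included 1. That value rested on 4 genes, of which Col4a1 and Col4a2 were counted through the same 2 peaks. The ratio in the gene, 1.27, was 1.41 (1.06 to 1.73) with reference genes of any biotype. With peaks of both lists alone, the share of collagen genes with a peak was 2.38% at the start site, 38.1% in the gene and 45.2% within 50 kb, the density 0.640 peaks per 100 kb, and the share of processing and receptor genes 24.6%, since fewer peaks enter. The ratio to length within 50 kb rose to 1.59 with these peaks, and the cause was not tested. The share within 50 kb became 83.3% at a distance of 100 kb and 81.0% around the whole gene, since the windows are larger. The 36-cycle list alone gave 0.909 peaks per 100 kb, a median width of 339 bp and the AP-1 site in 13.6% of peaks in collagen genes, where the cause was not tested. Searching whole peaks gave 39.4% for the AP-1 site and 42.4% for the E-box, beside 29.2% and 32.8% of peaks in other genes. Peaks in collagen genes were wider, with a median of 437 bp beside 376 bp, and these shares were not adjusted for width. Without Col4a1 and Col4a2, an alternative chosen after seeing the data, the density was 1.05 per 100 kb, beside 1.36 for all collagen genes, 1.16 for other genes and 0.897 for other genes of the longest class. No paired analysis was possible because there was 1 library per sonication condition. Peaks could not be filtered more strictly, as the lists carry no score.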
